A study of Homo sapiens with 6 samples.

Results

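The UCHL1 peaks described here are those that start or end within 500 kb of the first or last base of an autosome in hg19, and they numbered 272 of the 6813 peaks of 3 deposited lists. The rule uses position in the reference sequence and no level of a peak, though the window was chosen with earlier results of these data known. DU 145 is a prostate cancer cell line from a brain metastasis, and HEK293T is an embryonic kidney line that carries the SV40 T antigen. Chromatin immunoprecipitation and sequencing (ChIP-seq) with a mouse monoclonal antibody to UCHL1 was done on DU 145 cells cross-linked with 1% formaldehyde, on DU 145 cells cross-linked with 1 mM DSP and formaldehyde (dual cross-linking), and on HEK293T cells with dual cross-linking. Each condition has 1 ChIP library and 1 input library, so no value below has a replicate and no difference between lists was tested. The depth of each library is unknown, because the lists give tags within peaks and the study gives read totals only per cell line. The formaldehyde chromatin was sonicated and the dual cross-linked chromatin was cut with micrococcal nuclease, per the methods of the study, so cross-linker and fragmentation cannot be told apart. The labels give the same formaldehyde concentration for both protocols, while the study's methods give a lower one for dual cross-linking.

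Human chromosomes end in tandem copies of the hexamer TTAGGG, with the G-rich strand running toward the end, and the shelterin proteins TRF1 and TRF2 bind this repeat in double-stranded form. The sequence next to the ends, the subtelomere, is built from blocks copied between chromosomes, which carry stretches of the same hexamer and families of duplicated genes and pseudogenes. UCHL1 is a deubiquitinating enzyme, a ubiquitin C-terminal hydrolase, abundant in neurons and found in some cancers.

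Both sequences below are from hg19, plus strand, 5′ to 3′, with every CCCTAA or TTAGGG in capitals. On a short arm CCCTAA on the plus strand points the G-rich strand toward the end, and on a long arm TTAGGG does. They show a DU 145 dual peak whose 6 hexamers are never consecutive and alternate with TCAGGG units, and the DU 145 dual peak of highest fold enrichment that has no hexamer at all.
5p chr5:49696-49843: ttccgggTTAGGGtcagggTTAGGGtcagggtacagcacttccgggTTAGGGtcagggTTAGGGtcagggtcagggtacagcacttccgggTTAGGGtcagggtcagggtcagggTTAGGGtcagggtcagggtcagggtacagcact
7q chr7:158789822-158789874: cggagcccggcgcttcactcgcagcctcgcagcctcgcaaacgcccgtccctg

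The window held 56 of the 3086 peaks from DU 145 formaldehyde (1.81%, 95% Wilson interval 1.4 to 2.35%), 79 of the 1531 from DU 145 dual (5.16%, 4.16 to 6.38%) and 137 of the 2196 from HEK293T dual (6.24%, 5.30 to 7.33%). Intervals here and below cover counting error only. The 500 kb windows contain 17.5 Mb of determined sequence, or 0.651% of the determined autosomal bases. Subtelomeric peaks stood at 3.20 per Mb in the DU 145 formaldehyde list, against 0.944 per Mb over the rest of the autosomes. In the DU 145 dual list the values were 4.52 and 0.448 per Mb, and in the HEK293T list 7.84 and 0.708 per Mb. All 3 lists were therefore denser in the windows than farther inside. The peaks just inside and just outside the 500 kb limit lay in DU 145 formaldehyde at 472.7 kb (fold enrichment 7.72) and 555.4 kb (8.42), in DU 145 dual at 428.9 kb (15.97) and 507.5 kb (13.35), and in HEK293T at 499.5 kb (13.81) and 505.5 kb (13.22).

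The 2 DU 145 lists and the HEK293T list differed in what lay under these peaks. At least 2 consecutive hexamers, called the telomeric repeat below, were present in 40 of 56 DU 145 formaldehyde members (71.4%, 58.5 to 81.6%), against 2.58% of all peaks of that list with readable sequence. In DU 145 dual the repeat was present in 59 of 79 (74.7%, 64.1 to 83.0%), against 10.6% of that list. In HEK293T it was present in 29 of 137 (21.2%, 15.2 to 28.7%), against 2.24% of that list. This lower share depended on the limits set: it was 51.6% over HEK293T members with a false discovery rate of 5% or less and 42.1% within 100 kb of the end, where DU 145 formaldehyde had 100% and 92.0%. The subtelomeric members made up 52.6% of the autosomal repeat peaks of DU 145 formaldehyde (40 of 76), 39.1% of those of DU 145 dual (59 of 151) and 60.4% of those of HEK293T (29 of 48). For scale, hg19 was cut into tiles of 120 bases, the median length of the members. The repeat was in 188 of 145663 tiles of the windows (0.129%) and in 0.00280% of the tiles of the rest of the autosomes.

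The repeat-bearing members held many units. Their median number of hexamers was 12 in each list, against 6, 4 and 6 in the repeat peaks farther inside the chromosomes for DU 145 formaldehyde, DU 145 dual and HEK293T. The median of the longest uninterrupted run was 5, 4 and 5 units, and the highest was 13, at 12p. The G-rich strand ran toward the chromosome end in 39 of 40, 55 of 59 and 26 of 29 repeat members of the same lists. The inward-facing ones came from 4 places: 12p at 95 kb in all 3 lists, 2q at 46.6 kb in the 2 dual lists, and 7p at 174 kb and 13q at 190 kb in DU 145 dual.

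**Figure D1:**
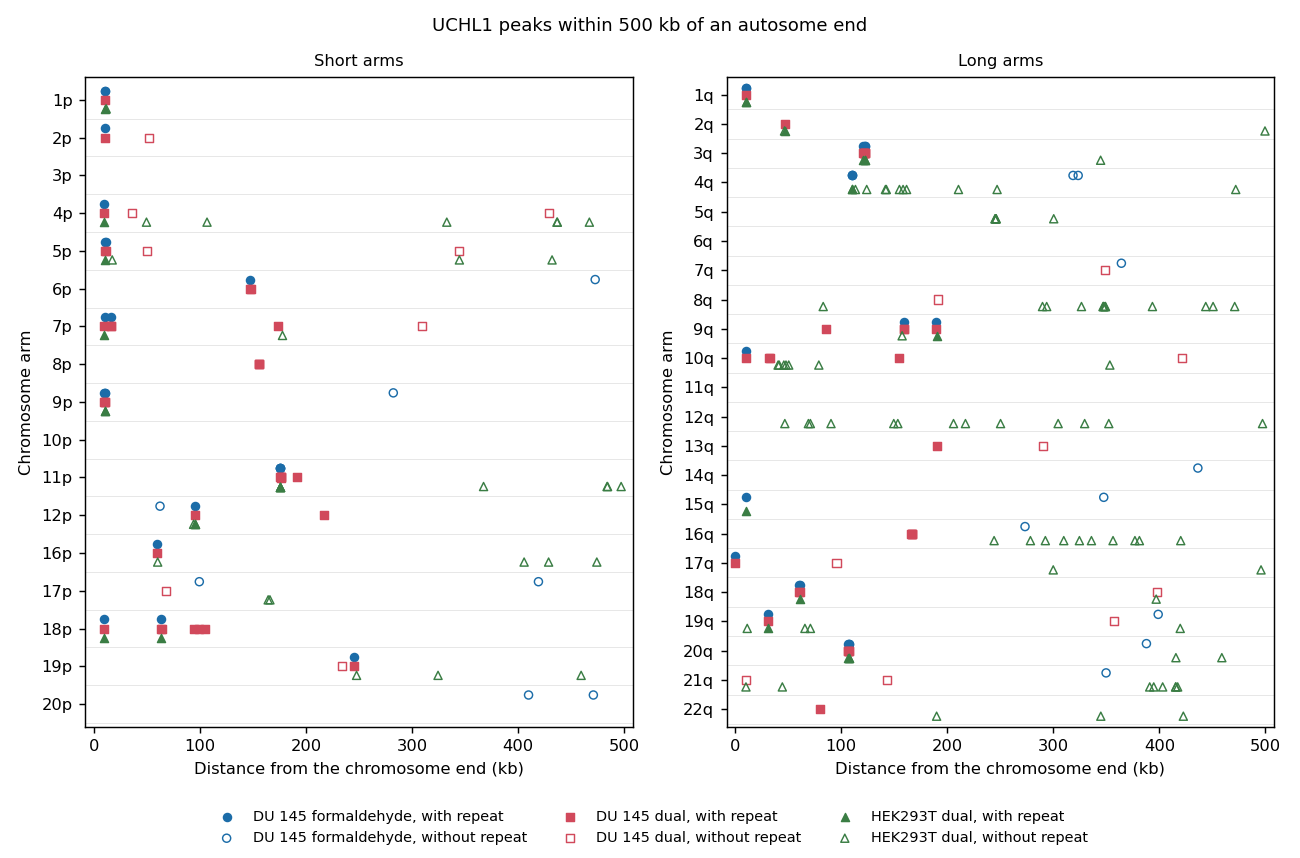
Each symbol is 1 UCHL1 peak, placed by chromosome arm (y axis) and distance from the chromosome end in kb (x axis), with circles for DU 145 formaldehyde, squares for DU 145 dual and triangles for HEK293T dual, filled where the peak holds the telomeric repeat. The filled symbols stack at 10 kb, where the determined sequence of many arms starts, and again between 100 and 200 kb, while the open triangles of HEK293T are most numerous on 8q and 12q, with 13 each.

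Members were found on 35 of the 39 autosome arms with determined bases in the window, and the short arms of the 5 acrocentric chromosomes are undetermined in hg19. The 4 arms without a member were 3p, 6q, 10p and 11q. A repeat member in all 3 lists was present on 14 arms (1p, 1q, 3q, 4p, 5p, 7p, 9p, 9q, 11p, 12p, 18p, 18q, 19q and 20q). Another 6 arms (2p, 6p, 10q, 16p, 17q and 19p) had one in both DU 145 lists and not in HEK293T, and 4 arms (8p, 13q, 16q and 22q) in DU 145 dual alone. On 4q and 15q, DU 145 formaldehyde and HEK293T had a repeat member and DU 145 dual had none. On 2q the 2 dual lists had one and DU 145 formaldehyde did not. Short and long arms held equal numbers in DU 145 (28 and 28 members with formaldehyde, 40 and 39 with dual cross-linking), whereas in HEK293T 39 were on short arms and 98 on long arms. The excess was in members without the repeat, since its repeat members were 14 on short arms and 15 on long arms. These counts are not scaled to determined sequence, and fewer short arms than long arms have determined bases in the window.

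The share with the repeat varied with distance from the end and was lowest beyond 200 kb. Distances include the undetermined bases at each hg19 end, such as 10 kb on 1p, 60 kb on 16p and 110 kb on 4q. Arms with 60 kb or more undetermined can hold no member in the outermost 20 kb. The 4q array, in the range of 100 to 200 kb, lies 47 bases from the last determined base. In the outermost 20 kb, the repeat was in 17 of 17, 15 of 16 and 10 of 14 members of DU 145 formaldehyde, DU 145 dual and HEK293T. Between 20 and 100 kb it was in 6 of 8, 13 of 19 and 6 of 24. Between 100 and 200 kb it was in 16 of 16, 29 of 33 and 13 of 28. Beyond 200 kb it was in 1 of 15, 2 of 11 and 0 of 71. The farthest repeat member was the same 19p site, 246 kb from the end, in both DU 145 lists, and stood at 190 kb (9q) in HEK293T. More than 1 in 2 HEK293T members (71 of 137, 51.8%) lay beyond 200 kb, against 26.8% in DU 145 formaldehyde and 13.9% in DU 145 dual.

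**Figure D2:**
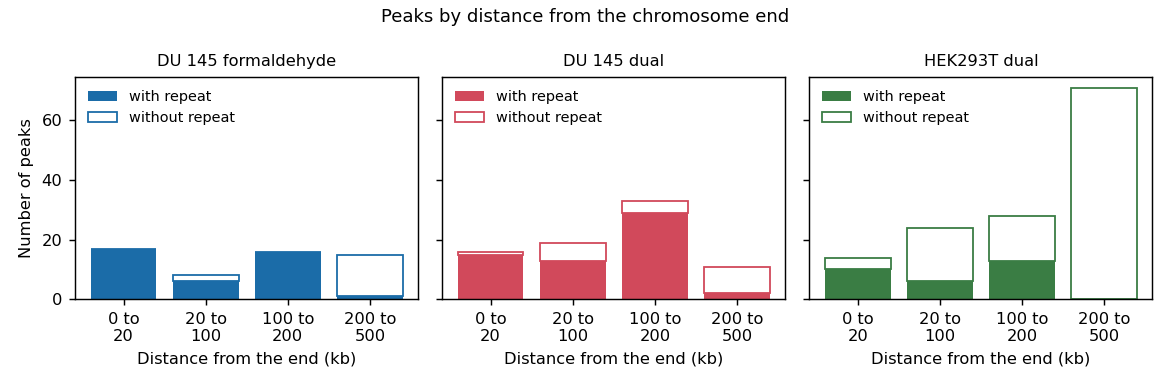
Bars give the number of subtelomeric UCHL1 peaks (y axis) in 4 ranges of distance from the chromosome end in kb (x axis), 1 panel per list, with the filled part holding the telomeric repeat and the open part without it. The bar for 200 to 500 kb is open for all 71 peaks of HEK293T and filled for 1 of 15 and 2 of 11 in DU 145 formaldehyde and DU 145 dual.

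Repeat members were also the stronger ones. Fold enrichment, the deposited ratio of tags at a peak to the local input background, had a median of 31.02 over the 40 repeat members of DU 145 formaldehyde (range 9.87 to 141.36) and of 11.67 over the other 16. In DU 145 dual the medians were 40.31 (6.68 to 235.05) over 59 and 16.77 over 20, and in HEK293T 22.09 (10.29 to 71.31) over 29 and 14.88 over 108. The repeat peaks farther inside had similar median fold enrichments of 31.73 (n = 36), 35.86 (n = 92) and 24.85 (n = 19). By tags and score the repeat members were higher in each list. Their median tags were 14, 22 and 19, against 10, 13 and 15 farther inside. Their median scores were 132, 212 and 108, against 116, 153 and 101. The repeat members were also longer, with medians of 108, 147 and 125 bases against 84, 94 and 109. Their median false discovery rates were 6.95%, 0% and 4.13%, against 8.07%, 0.930% and 1.82%, so in HEK293T that measure went the other way. Low tag numbers make fold values coarse: 15 HEK293T members, with 8 to 11 tags each, share the value 16.57.

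By the authors' false discovery rate (FDR), 16 of 56 members of DU 145 formaldehyde were at 5% or less (28.6%), against 1.91% of the whole list, and all 16 held the repeat. In DU 145 dual 71 of 79 were (89.9%), against 68.3% of the list. In HEK293T 31 of 137 were (22.6%), against 17.8% of the list. Within HEK293T the share was 16 of 29 for repeat members (55.2%, 37.5 to 71.6%) and 15 of 108 for the others (13.9%, 8.60 to 21.7%). The HEK293T FDR did not follow strength at the top of the list. Its member of highest fold enrichment (20q, 71.31) had an FDR of 5.88%, and that of highest score (18p end) had 100%. Wherever the 5% limit is used, it leaves out these strong HEK293T repeat members. The number of hexamers in a repeat member and its fold enrichment had a Spearman correlation of 0.45 over the 59 peaks of DU 145 dual, 0.23 over the 29 of HEK293T and 0.07 over the 40 of DU 145 formaldehyde. These points share a library and many lie in the same array, so the values are a description of each list.

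Overlap between lists, by the study's rule that the midpoint of either peak falls in the other, was carried by the repeat. In DU 145 formaldehyde, 36 of 56 members (64.3%) overlapped a DU 145 dual peak, against 6.38% of that list, and 26 (46.4%) overlapped a HEK293T peak, against 2.14%. In DU 145 dual, 30 of 79 members (38.0%) overlapped a formaldehyde peak, against 12.4%, and 21 (26.6%) a HEK293T peak, against 7.58%. In HEK293T, 27 of 137 members (19.7%) overlapped a DU 145 formaldehyde peak, against 3.05%, and 27 (19.7%) a DU 145 dual peak, against 5.60%. Of the 29 repeat members of HEK293T, 27 overlapped a formaldehyde peak and 26 a dual peak of DU 145. Of its 108 other members, 0 and 1 did. That 1 was an intronic peak of AHRR, the repressor of the aryl hydrocarbon receptor, 345 kb from the 5p end, with a fold enrichment of 10.55 in DU 145 dual and 16.57 in HEK293T. The 16 and 20 members without the repeat in the DU 145 lists overlapped no peak of each other.

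Linking overlapping members gave 207 sites. A peak in all 3 lists was present at 19 of them, and all 19 held the repeat. Both DU 145 lists and not HEK293T had a peak at 11 sites, all with the repeat. Of the 108 sites of HEK293T alone 1 held it, of the 47 of DU 145 dual alone 28 did, and of the 18 of DU 145 formaldehyde alone 2 did. With peaks up to 1 kb apart joined, there were 40 loci with the repeat, and 16 of them had members of all 3 lists.

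The site with the highest fold enrichment was at the 7p end, in the array that starts the determined sequence, with fold enrichments of 88.62 in DU 145 formaldehyde, 235.05 in DU 145 dual and 19.47 in HEK293T, from 32, 94 and 19 tags. The 4p end gave 54.05, 141.06 and 21.41 in the same order, the 1p end 42.99, 129.8 and 21.54, and the 1q end 99.26, 111.55 and 22.09. At these 4 ends DU 145 dual was highest and HEK293T lowest. The 9p end, beside the pseudogene DDX11L5, held a pair of such sites, with 80.65, 91.63 and 17.23 at the outer and 19.65, 75.69 and 15.08 at the inner one.

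The 5p end differed in shape. The reference has 183 hexamers there without interruption, the longest perfect run in any window. The DU 145 dual peaks lay across its outer edge (124.7) and its inner edge (35.86), and no peak of any list lay in the interior. DU 145 formaldehyde had the same pair, with 24.77 and 18.95, and HEK293T had the outer one alone, with 38.0. Of the 1754 windows of 50 bases in this array, 42 (2.39%) occur once in hg19, and the treatment of reads with several positions is not stated. The part of this in the missing interior was not tested.

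Of the 19 sites the 18p end held the most tags, 345, 487 and 244 in DU 145 formaldehyde, DU 145 dual and HEK293T, in peaks of 640 to 680 bases. Its fold enrichments were 12.33, 33.62 and 24.18. The DU 145 values were below the medians of their repeat members (31.02 and 40.31), and the HEK293T value was above its median (22.09). The authors' FDR was 0% in both DU 145 lists and 100% in HEK293T. The input tags at this place are not in the lists.

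Where a site holds several peaks of a list, the highest value is given. Several of the 19 sites lay far from the end and within genes of the annotation used here. The study's own site list calls those on 11p and 20q intergenic, so their placement in genes depends on the annotation. The 11p site, 175 kb in, lies in introns of BET1L, a vesicle-fusion protein of the Golgi, and of an overlapping lncRNA gene (ENSG00000255229). Its fold enrichments were 141.36 in DU 145 formaldehyde, 203.93 in DU 145 dual and 30.77 in HEK293T. DU 145 dual covered it with a single peak of 703 bases and 288 tags (chr11:175321-176023), where the other lists had 4 short peaks each. On 20q, 107 kb in, 3 neighbouring sites fall in introns of PCMTD2, a gene related to protein-repair methyltransferases. The middle one gave 102.36, 96.36 and 71.31, the highest HEK293T value of all members and the lists stood closer together there than at any other of the 19 sites. The outer pair gave 24.36, 51.39 and 24.04, and 20.78, 61.18 and 32.39.

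On 3q, 121 to 122 kb in, 2 sites lie in an intron of the lncRNA gene ENSG00000290937. They gave 63.87, 124.66 and 44.18, and 19.14, 84.78 and 22.09, and DU 145 dual had 4 further peaks in the same array of 144 hexamers. On 12p, 95 kb in, next to DDX11L8 and WASH8P, the inward array gave 59.68, 174.18 and 29.23. On 18p a second site, 63.6 kb in, lies in an intron of the beta-tubulin gene TUBB8B, with 26.15, 60.85 and 14.62. On 19q, 30.9 kb in, an intron of the pseudogene CENPBD2P gave 17.99, 134.06 and 37.3. The study's own site list calls this site and the second 18p site intergenic. The 9q site, 190 kb in and next to a pseudogene (ENSG00000276388), gave 42.82, 65.72 and 22.09. The 18q array at 60.9 kb lies 922 bases from the last determined base of that arm. At this site, 10.8 kb from the polarity gene PARD6G, formaldehyde was highest by fold enrichment, with 31.02, 11.17 and 11.0. Its value came from 6 tags, against 21 in DU 145 dual and 19 in HEK293T, and by score it was lowest (64.7, 75.13 and 66.05).

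Side by side at shared sites, DU 145 dual was above DU 145 formaldehyde at 27 of 30, with a median ratio of 2.07 (log2 1.05, range −1.47 to 2.90) and medians of 75.69 and 35.80. HEK293T was below DU 145 dual at 20 of 21, with a median ratio of 0.278 (log2 −1.85, range −3.59 to 0.65) and medians of 22.09 and 91.63. HEK293T was below DU 145 formaldehyde at 14 of 21, with a median ratio of 0.692. Fold enrichment depends on the depth of ChIP and input, so these ratios compare single libraries. The tags, which are not scaled, were higher in DU 145 dual than in formaldehyde at 29 of 30 sites.

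**Figure D3:**
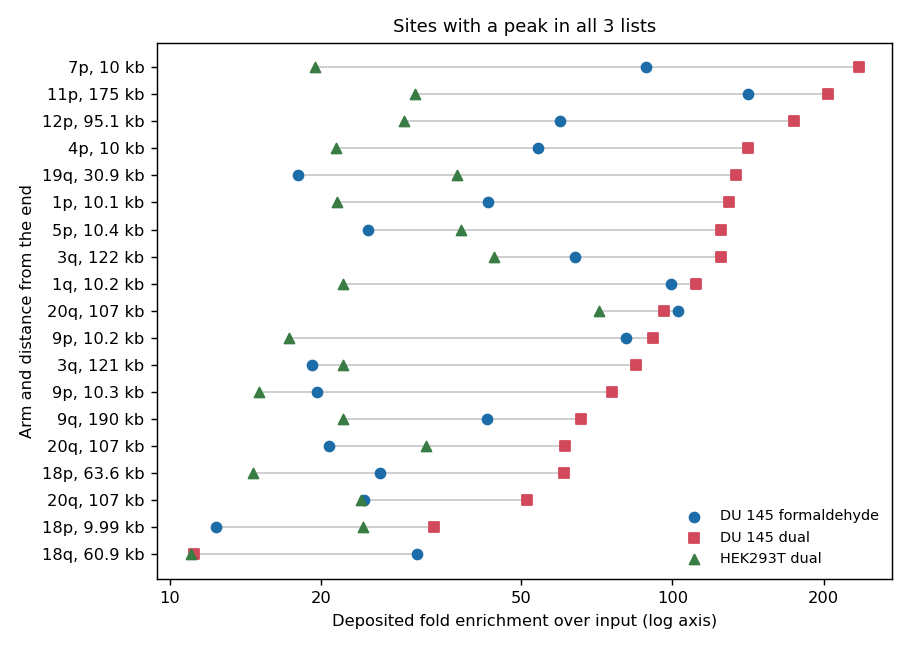
The deposited fold enrichment over input (x axis, log scale) is plotted for the 19 sites with a peak in all 3 lists, named by arm and distance from the end and sorted by the DU 145 dual value, with 1 symbol per list. Squares of DU 145 dual are rightmost except at the middle 20q site and on 18q, and triangles of HEK293T cluster between 11.0 and 44.18 apart from 71.31 at 20q.

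The hexamer arrays of the reference show which repeats had no peak. Within the windows hg19 has 68 arrays of at least 2 consecutive hexamers (joined over gaps of up to 200 bases) on 32 arms, 56 of them facing outward. A peak of DU 145 formaldehyde lay on 26 (38.2%), of DU 145 dual on 38 (55.9%), of HEK293T on 18 (26.5%), and of any list on 40 (58.8%). Coverage followed the size of the array. Of the 20 arrays with 2 to 4 hexamers, 1, 2 and 0 had a peak in DU 145 formaldehyde, DU 145 dual and HEK293T, and of the 25 with 20 or more, 18, 21 and 14 did.

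**Figure D4:**
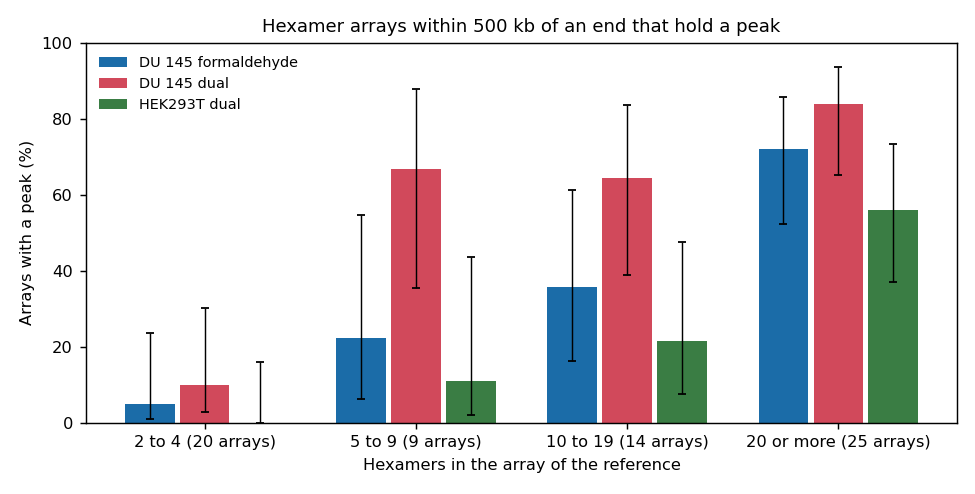
Bars give the percentage of hexamer arrays of the reference with a peak (y axis) by the number of hexamers in the array (x axis), 1 colour per list, with 95% Wilson intervals for counting error. The share rises from 10% or less in arrays of 2 to 4 hexamers to 72.0%, 84.0% and 56.0% in those of 20 or more for DU 145 formaldehyde, DU 145 dual and HEK293T.

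Not every long array had a peak. The array at the last determined bases of 12q has 63 hexamers, 61 of them in 1 run, and no list had a peak on it. The ends of 7q (17 hexamers), 19q (22), 21q (17) and 11q (9) had none on the array either. At 21q a DU 145 dual peak (fold enrichment 19.92, 7 tags) stopped just short of the array, and a HEK293T peak (19.12, 41 tags) lay next to it, both without a hexamer. Of the 50-base windows within these arrays, 14.8% occur once in hg19 at 12q, 61.8% at 19q and 0% at 7q and 21q. Over the 40 arrays with a peak the share ran from 2.39% to 100%, with a median of 79.0%, against a median of 100% over the 28 without. The 5 arrays with no such window all lacked a peak. These medians mix array sizes, since 18 of the 28 have 2 to 4 hexamers, and windows over arrays under 50 bases include flanking sequence. In arrays of at least 20 hexamers the median was 63.5% over 23 with a peak and 38.3% over 2 without. In those of 10 to 19 hexamers it was 79.8% over 9 and 75.2% over 5. The arrays without a peak at 5p (13 hexamers, 50.3 kb) and 8p (10 hexamers, 170 kb) have only windows that occur once, and that at 10p (15 hexamers) has 75.2%. The part of read mapping in these differences was not tested.

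DU 145 dual alone had a peak on several weaker arrays. The 16q array in FAM157C, an lncRNA gene of the FAM157 family, held 4 of its peaks (fold 9.03 to 19.41), and the 8p array 3 (23.9 to 27.89). By fold enrichment the 5 leading members seen in DU 145 dual alone were at 6p (67.40, 2.77 kb from SEPTIN14P6), in an intron of IQSEC3 on 12p (59.76), at the 7q site without a hexamer (47.81, 12 tags), in an intron of CFAP97D2 on 13q (47.72) and on 18p at 94.6 kb (40.31). Next among those in protein-coding genes was an intron of SYCE1 on 10q (33.37), a component of the meiotic synaptonemal complex. A coding exon of PCMTD2 (29.91) and a coding exon of SLC66A2 on 18q (23.90) followed. The neighbouring PCMTD2 sites are intergenic in the study's own list. Not all these members lie on arrays with DU 145 dual peaks alone. The 6p array also held a DU 145 formaldehyde peak (17.55), and the PCMTD2 array held peaks of all 3 lists. The widest member was also in DU 145 dual alone, 1790 bases with 568 tags on 10q, 33.3 kb in and next to a DUX4L copy, with a fold enrichment of only 3.42 and no hexamer.

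Members of DU 145 formaldehyde without the repeat were weak and AT-rich, as were the other peaks of that list. All 16 had an FDR over 5%, 14 had 6 to 9 tags, and 12 had a GC content under 35%, with a median of 26.4% against 52.5% in DU 145 dual and 52.3% in HEK293T. The 2482 peaks of the DU 145 formaldehyde list without the repeat farther inside the autosomes had a median GC content of 28.8%, a median of 7 tags and a median FDR of 18.4%. The 5 leading members of DU 145 formaldehyde alone were on 19q (31.91), in introns of DOCK8 on 9p (31.02) and PRPF6 on 20q (31.02), a splicing factor, on 7q (29.25) and at the 15q end (27.11), and of these only the 15q member held the repeat. Further ones in protein-coding genes were in PCNT on 21q (13.80), RPH3AL on 17p (8.25) and RBCK1 with TBC1D20 on 20p (8.07), each from 6 to 8 tags.

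**Figure D5:**
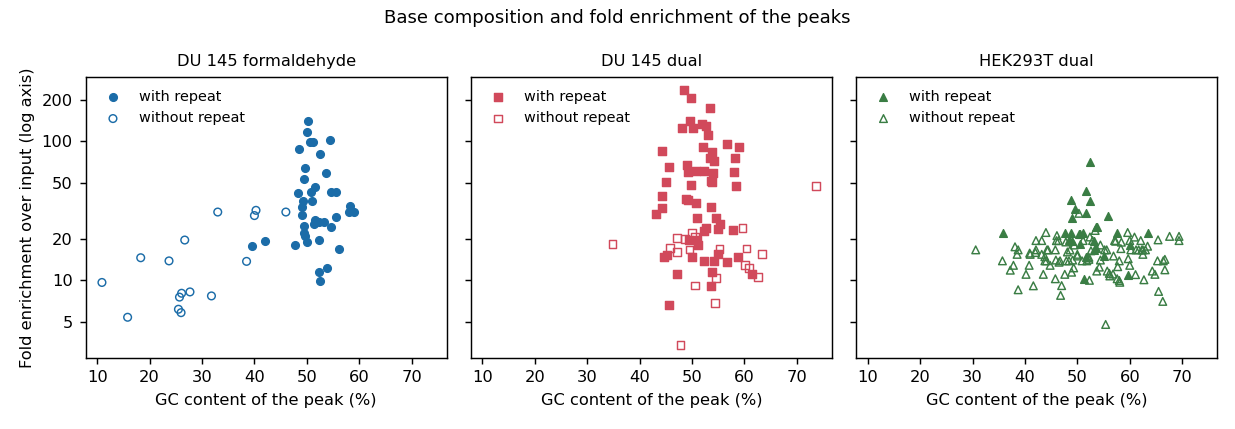
Each symbol is 1 subtelomeric peak by its GC content in percent (x axis) and its fold enrichment over input (y axis, log scale), 1 panel per list, filled where it holds the telomeric repeat. Repeat peaks lie between 35.9% and 63.4% GC in every list, the open circles of DU 145 formaldehyde run down to 10.9% GC, and the open triangles of HEK293T spread from 30.6% to 69.4%, with 9 of the 108 above a fold enrichment of 20.

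The 108 HEK293T members without the repeat lay mainly in genes. Protein-coding gene bodies held 67 of them (62.0%), against 8 of the 29 with the repeat (27.6%). The DU 145 lists had the same contrast, so it was not particular to HEK293T. Such gene bodies held 9 of 16 DU 145 formaldehyde members without the repeat, against 8 of 40 with it. In DU 145 dual they held 10 of 20 without the repeat, against 13 of 59 with it. Of the 108 HEK293T members, coding exons held 16, untranslated exon parts 11 and noncoding exons 19. The 29 HEK293T repeat members were intergenic (17) or intronic (12). Peaks within 5 kb of the start of a protein-coding gene numbered 27 of 137 in HEK293T, 4 of 79 in DU 145 dual and 1 of 56 in DU 145 formaldehyde. Positions relative to genes were not computed over the whole lists, so no share of a list stands beside these counts. The share of the window sequence that lies in genes is not given here either. The 5 leading members of HEK293T alone were on 2q (30.37, beside the inward array), on 4q at 247 kb (22.85) and 472 kb (20.98), in an intron of SLC66A2 on 18q (22.09) and in DNAJC5 on 20q (22.09), a synaptic chaperone gene. In protein-coding genes RPL8 on 8q (20.51) came next, followed by a tie at 19.33 between ZNF141 on 4p, ARHGAP39 on 8q, TCF25 on 16q, TBCD on 17q and SAMD10 on 20q. The leading 2q member (chr2:243152682-243152830) shares bases with a DU 145 dual peak (chr2:243152546-243152733). It counts as HEK293T alone only by the midpoint rule.

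Zinc finger genes had more peaks than any other family listed for the search. The families differ in size, and the ZNF genes of the windows were not counted, so this order is no measure of preference. Peaks within 5 kb of a gene whose symbol starts with ZNF numbered 24 in HEK293T, 3 in DU 145 dual and 0 in DU 145 formaldehyde. Of the 24 in HEK293T, 3 had an FDR of 5% or less. In HEK293T 16 lay inside 10 protein-coding ZNF genes, 9 of them on 12q (ZNF268, ZNF891, ZNF84, ZNF26 and ZNF605) and 4 on 4p (ZNF721 and ZNF141). Their fold enrichments ran from 9.13 to 19.33 and 1 of the 16, in an exon of ZNF891 (15.38), had an FDR of 5% or less. Single genes with several HEK293T peaks included RPL8 and RACK1. RPL8, a protein of the large ribosomal subunit, had 4 HEK293T peaks in its coding exons (12.29 to 20.51, 2 of them with an FDR of 5% or less), and RACK1 on 5q, a ribosome-bound scaffold, had 5 (10.26 to 16.57, 2 with an FDR of 5% or less). Both were singled out after their values were seen, and neither had a DU 145 peak.

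The DUX4 genes, which encode or derive from a double-homeobox transcription factor and lie in the D4Z4 repeat of 4q and 10q, had HEK293T peaks without the hexamer. Members within 5 kb of DUX4 or a DUX4L copy numbered 11 in HEK293T, 2 in DU 145 dual and 0 in DU 145 formaldehyde. The 6 on 4q had fold enrichments of 11.04 to 20.72 and a GC content of 64.8 to 69.4%, and the 5 on 10q had 7.05 to 20.72 and 61.1 to 69.4%. An FDR of 5% or less was given to 2 on 4q and to 0 on 10q. Both sets stand on copied sequence, since the 50 bases at each summit occur 14 to 16 times in hg19 on 4q and 8 to 16 times on 10q. A HEK293T peak of each arm is shown here, a pair chosen after their values were seen. Their 276 aligned bases are identical, so reads from one cannot be told from those of the other.
4q chr4:191011526-191011645: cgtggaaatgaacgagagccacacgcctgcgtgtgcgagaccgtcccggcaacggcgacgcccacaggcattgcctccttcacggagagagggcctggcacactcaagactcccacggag
10q chr10:135486628-135486747: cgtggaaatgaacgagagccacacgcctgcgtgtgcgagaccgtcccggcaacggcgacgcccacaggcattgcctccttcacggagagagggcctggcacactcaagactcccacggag

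The other families differed in their link to the repeat. DDX11L pseudogenes and their WASH neighbours (copies of a helicase gene and of an actin-nucleation gene) had 23 peaks within 5 kb on 1p, 9p, 12p, 15q and 16p. The repeat was in 8 of 8 of DU 145 formaldehyde (19.65 to 80.65), 6 of 6 of DU 145 dual (71.71 to 174.18) and 6 of 9 of HEK293T (11.04 to 29.23). These families were matched by their symbols in GENCODE 44, so a copy listed there only under an identifier, or under another symbol, is not counted. On that basis the FAM157 family had 1 peak in DU 145 formaldehyde, 6 in DU 145 dual and 0 in HEK293T, not counting the 3q array in ENSG00000290937, and TUBB8B had 1, 2 and 1. FRG1-DT, the divergent transcript of FRG1 on 4q, had 2 in DU 145 formaldehyde (19.5 and 13.69, without the repeat) and 1 within 5 kb in HEK293T, where FRG2 also had 1. RPL23AP pseudogenes had 0, 1 and 2. By symbol in GENCODE 44, no member was matched within 5 kb to FAM138, MIR1302, OR4F, TUBBP, LINC00266, FAM41 or WBP1LP. The study's own site list does name some of these families. It places a TUBBP gene at a 9q site, LINC00266 genes at a 6p site and near the 20q sites, and a FAM157 gene at the 3q array. These counts were not made with other annotations.

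Copied sequence also limits the placing of the repeat members. The 50 bases at the summit occurred more than once in hg19 in 13 of 40 repeat members of DU 145 formaldehyde (32.5%), 18 of 58 of DU 145 dual (31.0%) and 8 of 29 of HEK293T (27.6%). The 50 bases at the remaining counted summits occur once. In DU 145 dual 58 of the 59 repeat members were counted, because only fully determined stretches of 50 bases were used.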

How the data were processed

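UCHL1 ChIP-seq was done on 1 library each of DU 145 with formaldehyde, DU 145 with dual cross-linking and HEK293T with dual cross-linking, each with an input. The authors mapped SOLiD reads to hg19 with Lifescope, per the methods of the study, and called peaks against the matching input with MACS 1.4.2, per the submitters' processing notes, and the 3 deposited lists enter here. The tag count of a peak is as deposited by the authors, with no scaling to library size. The score is as deposited by the authors, with its column name lost, and was read as −log10 of the peak p-value multiplied by 10, because it starts at 50. The fold ratio was made by the authors as tags at the peak over the local input background. The FDR in percent was estimated by the authors with MACS by exchanging ChIP and input. The score reaches a ceiling of 3100. The depth of each library and the treatment of reads with several positions are not given in the sources used here.

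Peaks were placed by arm and distance to the hg19 chromosome end, hexamers were counted on both strands in the hg19 sequence (samtools 1.23.1, pysam 0.24.0), and genes came from GENCODE 44 on GRCh37. Some sites placed in genes by this annotation are intergenic in the study's own site list. An array joins hexamers over gaps of up to 200 bases. Overlap needed the midpoint of either peak inside the other. Wilson intervals are at 95% (scipy 1.17.1). Scripts ran in Python 3.11.15 with pandas 2.3.3, numpy 2.4.6, numba 0.67.0 and matplotlib 3.10.9, and the counting steps were tested on simulated data. No test was possible with 1 library per condition.

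The sites named were the 5 highest by fold in each list, the 5 highest found in that list alone, the 5 highest of these in protein-coding genes, and all sites with a peak in all 3 lists. Gene families were matched by the start of the symbol within 5 kb. The members and lists were chosen with earlier results of these data known. The sequences of the repeat arrays are not reported here. The 5p and D4Z4 sequences shown and the genes RPL8 and RACK1 were chosen after their values were seen. Alternatives changed the window, the repeat definition, the FDR limit, the score limit and the measure compared. The inputs were not analysed here by themselves.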

Additional observations from a re-analysis of the deposited data

How the results depend on the processing

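The lists are given in the order DU 145 formaldehyde, DU 145 dual, HEK293T. A 100 kb window left 25, 35 and 38 peaks on 16, 19 and 17 arms, and the share with the repeat was 92.0% in the first and 42.1% in the third. A 1000 kb window gave 282 HEK293T peaks. Limiting peaks to an FDR of 5% or less left 16 in DU 145 formaldehyde and 31 in HEK293T, on 12 and 17 arms, with the repeat in 100% and 51.6%. With that limit in both lists, overlap was 100% and 68.8% of the DU 145 formaldehyde peaks (with DU 145 dual and HEK293T), 18.3% and 16.9% of the DU 145 dual peaks (with DU 145 formaldehyde and HEK293T), and 35.5% and 48.4% of the HEK293T peaks (with DU 145 formaldehyde and DU 145 dual). A score of at least 100 left 28, 44 and 25 peaks. Asking for 4 consecutive hexamers lowered the repeat share to 55.4% and 40.5% in the DU 145 lists. DU 145 dual was higher than formaldehyde at 96.7% of shared sites by tags and at 100% by score, and HEK293T was higher than DU 145 dual at 0% by tags, with 1 tie. Stricter limits use fewer peaks by construction, and other causes of these shifts were not tested. In all 29 values moved by more than their interval or by over 1.5 times, 37 planned ones did not, nor did 3 with peaks within 1000 bp merged, an alternative chosen after seeing the data, and none reversed. No paired analysis was possible because each condition has 1 library and no replicate number. Low tag numbers in many peaks and the unknown depth of each library limit the precision.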
